A study of Mus musculus with 54 samples.

Results

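The germ cells of mice silence transposons with PIWI-interacting RNAs (piRNAs), and 10 genes of this pathway were followed in testis and ovary of animals that met a mixture of drugs and a synthetic oestrogen, and of their untreated offspring. The genes were taken by symbol from the count tables of both tissues, and all 10 of the 10 symbols (Piwil1, Piwil2, Piwil4, Mov10l1, Mael, Tdrd1, Tdrd6, Tdrd9, Pld6 and Ddx4) were among the 26264 entries. Messenger RNA was sequenced from 54 libraries of bulk tissue, 27 per tissue, in 9 groups of 3 libraries (A, B and C) in each. Dose 1 of the first generation (F1) was drinking water with ibuprofen at 11.3 ng/L, 2-hydroxyibuprofen at 90 ng/L, diclofenac at 22.5 ng/L and ethinyl-estradiol at 2.25 ng/L. Dose 2 held the same compounds at 113, 225, 112 and 45 ng/L, in that order, and F1 control water held 0.001% ethanol. F1 animals were exposed from 8.5 days post-coitum until they were killed, males at 10 weeks and females at 8 weeks of age. The second generation (F2) is labelled as untreated and came from crosses with a dose 1 mother, a dose 2 mother, a dose 1 father, a dose 2 father, both parents at dose 2, or control parents. The strain is not given in the sources used here, nor are the age of the F2 animals and any vehicle in their water. No source says whether A, B and C came from different litters, and the p-values therefore describe the spread among these libraries, which may be technical.

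Levels are given as CPM, the counts of a gene per 1e+06 counts of its library after scaling by library size, and differences are log2 fold changes ± SE from edgeR's quasi-likelihood test. A gene passed the test when its Benjamini-Hochberg adjusted p over all genes tested was under 0.05. The comparisons with control share their control libraries within a generation. The share of all genes whose groups did not overlap was computed only for testis at F1 dose 2 and for ovary with a dose 1 father. In other comparisons, members without overlap cannot be set against all genes. A testis library held 31.8 to 46.4 M counts, and an ovary library 35.6 to 102 M counts. Across testis libraries the protamine gene Prm1, which packs sperm DNA, stood at 1799 to 6471 CPM, and the egg coat gene Zp3 at 0.0576 to 0.421 CPM. In ovary, Zp3 stood at 35.0 to 95.6 CPM and Prm1 at 0 to 0.791 CPM. Some libraries stood apart. In testis, F1 dose 1 library A and F1 control library C had the highest summed CPM of 6 elongating spermatid markers, 24485 and 24694, where the median of the 27 libraries was 15135. In ovary, 3 oviduct epithelium markers summed to 1105 CPM in F1 dose 2 library A, 365 CPM in F1 dose 2 library B and 150.4 CPM in F1 control library A, against 20.1 CPM or less in the other libraries.

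PIWI proteins are Argonaute relatives that carry piRNAs to matching transcripts. In the mouse, Piwil4 acts in fetal male germ cells, Piwil2 from fetal germ cells to round spermatids, and Piwil1 in pachytene spermatocytes and round spermatids. Around them work Mov10l1, an RNA helicase that binds piRNA precursors, Pld6, a mitochondrial nuclease that cuts those precursors, and Ddx4, a DEAD-box helicase of germ granules known as mouse vasa homolog. Tdrd1, Tdrd6 and Tdrd9 are Tudor proteins, which bind methylated arginines of PIWI proteins; Tdrd9 is also a helicase, and Tdrd6 is needed for the chromatoid body of spermatids. Mael is a further germ granule protein. Loss of many of these genes makes male mice sterile, while the females stay fertile.

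The genes lie apart in the genome. By the GENCODE annotation of build GRCm38, Piwil1 (gene ID 57749) is on chromosome 5, Piwil2 (57746) on 14, Piwil4 (330890) on 9, Mov10l1 (83456) on 15 and Mael (98558) on 1. Tdrd1 (83561) is on chromosome 19, Tdrd6 (210510) on 17, Tdrd9 (74691) on 12, Pld6 (194908) on 11 and Ddx4 (13206) on 13.

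Promoters from RefSeq (build GRCm38.p6, 250 bases before to 50 after a start) were found for 8 of the 10 genes, with none in the table for Piwil2 and Tdrd6. They were searched for CACGTG, a palindromic E-box read alike on both strands, and for AACNG, the core bound by MYB-type factors, on both strands. At least 1 promoter of 7 of the 8 genes held CACGTG, Piwil4 being the exception, where 8.09% of the 27025 genes in the table did. Counted by promoter, 8 of the 12 entries of these genes held it, against 7.15% of all 32851 promoters. Overlapping entries of Tdrd1 hold the same site, so it is counted more than once in the counts by entry. CACGTG contains a CG dinucleotide, and 10 of the 12 entries held at least 10 CG. Among promoters with at least 10 CG, 8 of 10 entries of the members held CACGTG, against 10.9% of all 14281. The cutoff of 10 was set from the member gene with the fewest CG, Tdrd9, so it kept every member match. The other member promoters with a match held 18 to 38 CG, so the comparison matches CG content only loosely. In the other piRNA pathway genes listed further on, 4 of the 15 genes found had such a promoter. AACNG was in all 12 member promoters and in 80.3% of all promoters. A match here is a run of letters, and no binding was measured. Shown in gene direction are the promoters of the genes that passed a test within a tissue (Piwil1, Tdrd1, Pld6), of the most abundant (Mael), of the gene with the furthest fold changes in ovary (Tdrd9) and of the exception (Piwil4). For genes with several starts the most upstream is given. The motifs were chosen after the data were seen. Capitals mark CACGTG.
Piwil1, chr5:128735996-128736295, plus strand: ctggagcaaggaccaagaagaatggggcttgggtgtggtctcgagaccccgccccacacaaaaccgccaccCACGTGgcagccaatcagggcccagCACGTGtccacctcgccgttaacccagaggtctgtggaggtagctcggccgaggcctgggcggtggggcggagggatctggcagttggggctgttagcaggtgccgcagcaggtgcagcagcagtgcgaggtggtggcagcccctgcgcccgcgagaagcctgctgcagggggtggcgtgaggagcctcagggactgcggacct
Tdrd1, chr19:56825959-56826258, plus strand: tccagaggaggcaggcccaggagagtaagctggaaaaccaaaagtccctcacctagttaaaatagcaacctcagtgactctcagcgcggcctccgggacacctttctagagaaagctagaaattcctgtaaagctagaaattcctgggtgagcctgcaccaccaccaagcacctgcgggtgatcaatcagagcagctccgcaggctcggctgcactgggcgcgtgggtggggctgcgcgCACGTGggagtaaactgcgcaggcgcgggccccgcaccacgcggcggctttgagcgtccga
Pld6, chr11:59787608-59787907, minus strand: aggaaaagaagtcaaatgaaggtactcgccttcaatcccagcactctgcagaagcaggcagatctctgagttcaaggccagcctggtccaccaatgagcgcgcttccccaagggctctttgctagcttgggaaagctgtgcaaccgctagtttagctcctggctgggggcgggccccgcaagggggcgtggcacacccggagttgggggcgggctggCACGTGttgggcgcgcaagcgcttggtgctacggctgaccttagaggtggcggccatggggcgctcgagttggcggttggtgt
Mael, chr1:166238695-166238994, minus strand: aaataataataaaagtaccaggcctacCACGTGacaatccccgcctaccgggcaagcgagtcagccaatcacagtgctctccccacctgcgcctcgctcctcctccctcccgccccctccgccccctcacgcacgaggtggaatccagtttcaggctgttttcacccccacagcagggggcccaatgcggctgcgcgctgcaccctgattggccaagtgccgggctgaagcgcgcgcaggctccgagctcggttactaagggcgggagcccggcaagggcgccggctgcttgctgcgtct
Tdrd9, chr12:111971309-111971608, plus strand: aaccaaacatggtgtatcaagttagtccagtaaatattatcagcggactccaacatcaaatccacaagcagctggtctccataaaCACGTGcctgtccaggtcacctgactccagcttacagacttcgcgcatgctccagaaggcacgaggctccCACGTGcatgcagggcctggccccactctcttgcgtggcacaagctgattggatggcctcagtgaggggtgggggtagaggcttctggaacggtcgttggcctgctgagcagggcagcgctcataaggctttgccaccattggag
Piwil4, chr9:14740623-14740922, minus strand: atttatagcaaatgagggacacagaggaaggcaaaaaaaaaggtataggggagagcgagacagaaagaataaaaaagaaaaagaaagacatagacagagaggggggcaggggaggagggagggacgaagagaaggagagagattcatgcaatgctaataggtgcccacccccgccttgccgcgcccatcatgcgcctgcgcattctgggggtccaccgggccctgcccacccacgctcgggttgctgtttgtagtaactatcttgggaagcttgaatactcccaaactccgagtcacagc
Piwil1 and Tdrd9 each held 2 copies. The copy lay 11 bases before the start in Tdrd1, 33 bases before it in Pld6 and 223 bases before it in Mael.

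Which pathway genes does the adult testis hold most of? Compared per kilobase of exon and averaged over the 27 testis libraries, Mael, the germ granule gene, was highest at 713 ± 29.6 CPM per kilobase (SD over libraries). Ddx4 followed at 173 ± 11.9, Tdrd6 at 131 ± 12.7 and Piwil1 at 106 ± 8.38 CPM per kilobase. The library range of Mael (666 to 765) lay above that of Ddx4 (148 to 194). Ddx4 overlapped Tdrd6 (97.0 to 156), and Tdrd6 overlapped Piwil1 (93.1 to 122), whose range lay above that of the next gene, Tdrd1 (29.4 to 42.6). Tdrd1 (36.4 ± 3.46), Piwil2 (30.5 ± 2.56), Tdrd9 (29.2 ± 1.94), Pld6 (24.3 ± 2.096) and Mov10l1 (20.4 ± 1.51) formed a lower tier whose neighbours overlapped in range. Piwil4, the PIWI gene of fetal germ cells, was last at 0.125 ± 0.0351 CPM per kilobase, on 13 to 45 counts per library. With the longest coding sequence as the length, Mael, Ddx4, Mov10l1 and Piwil4 kept their ranks, and Piwil1 stood above Tdrd6 (179 and 145 CPM per coding kilobase).

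**Figure D1:**
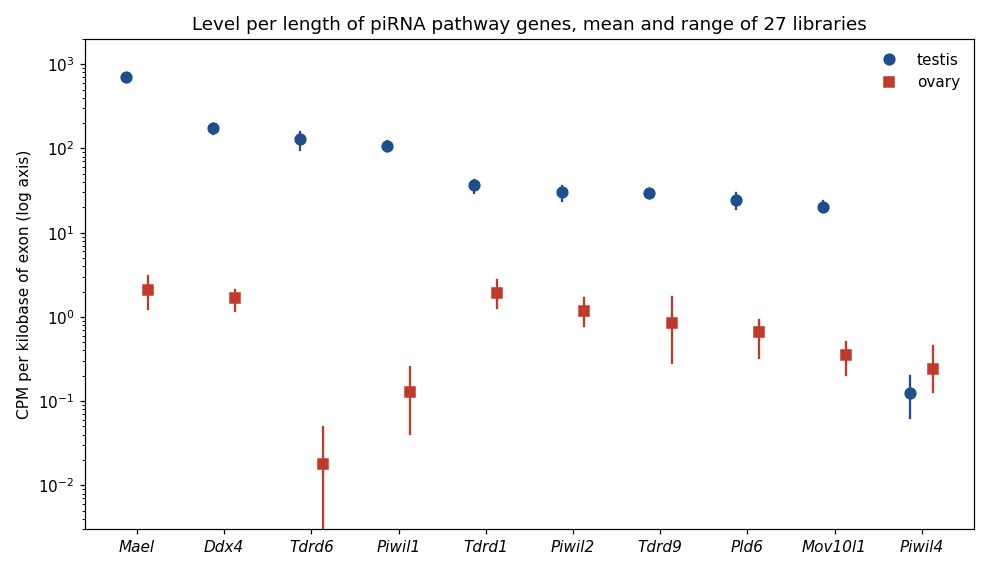
Level per length of the 10 genes in testis (circles) and ovary (squares), as CPM per kilobase of exon on a log axis; markers are means and lines the range of 27 libraries per tissue, with the line of ovarian Tdrd6 running off the axis because its lowest library is at 0. Testis exceeds ovary in 9 genes, and Piwil4 is low in both, at 0.125 CPM per kilobase in testis and 0.241 CPM per kilobase in ovary.

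Together the genes summed to 3437 to 4040 CPM per library in testis, against 23.6 to 46.7 CPM in ovary. Per kilobase, the ovary ranked Mael (2.102 ± 0.480 CPM per kilobase), Tdrd1 (1.95 ± 0.406), Ddx4 (1.66 ± 0.286) and Piwil2 (1.18 ± 0.245) highest, and the library ranges of these 4 genes overlapped. Per coding kilobase Tdrd1 came first (3.01 CPM) and Mael second (2.80 CPM). Tdrd6 was lowest, at 0 to 16 counts per library. The library without a count of it (F1 dose 2 A) allows up to 0.0722 CPM, the worth of 3 counts, a limit for counting error only.

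Set against ovary in the F1 control libraries, 9 of the 10 genes were higher in testis, where 42.3% of the 19432 genes tested were higher in testis and 83.4% passed in either direction. Tdrd6 had 841, 848 and 827 CPM in testis and 0.220, 0.132 and 0.192 CPM in ovary, a log2 difference of 12.68 ± 0.25. CPM values are scaled within a tissue and log2 differences across the tissues, so their ratios differ. Piwil1 had 449.9, 467 and 406 CPM in testis and 0.900, 0.556 and 0.264 CPM in ovary, a log2 difference of 10.11 ± 0.42. Both are genes of late male germ cells, and no testis library came near an ovary library. Mael followed with a log2 difference of 8.87 ± 0.23, and Ddx4, Mov10l1 and Pld6 with 7.23 ± 0.24, 6.50 ± 0.22 and 6.01 ± 0.18. The smallest differences that passed were those of Tdrd9 (5.42 ± 0.30), Piwil2 (5.33 ± 0.21) and Tdrd1 (4.65 ± 0.25). F1 control ovaries held these genes at means of 5.14, 5.31 and 10.3 CPM, and Ddx4 and Mael at 4.84 and 3.89 CPM. Adjusted p-values of the 9 genes ran from 4.21e-08 to 1.32e-06 in edgeR's test. Piwil4 was the exception, with 0.449, 0.809 and 0.400 CPM in testis and 1.05, 1.43 and 1.17 CPM in ovary. On these CPM, scaled within each tissue, every testis library lay below every ovary library. The log2 difference, scaled across the tissues, was -0.60 ± 0.37 and did not pass (adjusted p = 0.162, edgeR). Separation of the libraries was not checked on that scale. The members' median log2 difference was 6.26, that of all genes tested about 0. In bulk tissue, fewer cells of a type and less RNA per cell cannot be told apart. Nor can tissue, sex and age, as the males were killed at 10 weeks and the females at 8 weeks.

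In F1 testis at dose 2, most of the pathway stood slightly above control, yet no member passed the test. Of the 10 genes, 9 had a log2 fold change above 0 and the median was 0.22, against 0.01 for all 18923 genes tested, of which 2.21% passed. For 8 of the 10 genes the libraries of the groups did not overlap, as for 35.5% of all genes tested. The unadjusted p was under 0.05 for 5 of 10 genes and for 23.6% of all genes. Among the PIWI genes, Piwil1 had 509, 532 and 513 CPM at dose 2, against 449.9, 467 and 406 CPM in control. Every dose 2 library lay above every control library, with a log2 fold change of 0.23 ± 0.07 (adjusted p = 0.0810, edgeR). Piwil2 had 162, 174 and 192 CPM at dose 2, against 150.5, 150.6 and 139 CPM in control, again without overlap (0.26 ± 0.10, adjusted p = 0.157, edgeR). Piwil4, at 0.547, 0.963 and 1.08 CPM against 0.449, 0.809 and 0.400 CPM in control, overlapped (0.65 ± 0.37, adjusted p = 0.308, edgeR).

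The 3 Tudor genes also had log2 fold changes above 0, and none passed. Tdrd1 had 203, 216 and 214 CPM at dose 2, against 179, 179 and 169.9 CPM in control (0.26 ± 0.08, adjusted p = 0.0887, edgeR). Tdrd6 had 975, 1014 and 995 CPM at dose 2, against 841, 848 and 827 CPM in control (0.24 ± 0.10, adjusted p = 0.185, edgeR). Tdrd9 had 166, 179 and 174 CPM at dose 2, against 149.5, 159 and 142 CPM in control (0.20 ± 0.08, adjusted p = 0.171, edgeR). None of the 3 genes overlapped its control. Of the genes that make or handle precursors, Mov10l1 (0.18 ± 0.09) and Ddx4 (0.15 ± 0.07) also lay above control in every library, while Pld6 overlapped it (0.05 ± 0.09). Mael was the gene below control, with 1156, 1154 and 1211 CPM at dose 2 and 1219, 1212 and 1301 CPM in control (-0.09 ± 0.05, adjusted p = 0.343, edgeR).

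The dose 2 calls depended on the libraries in the fit. With only the 6 libraries compared, Piwil1, Piwil2, Tdrd1 and Tdrd6 passed, with all 27 testis libraries or with DESeq2 Piwil1 and Tdrd1 did, and leaving out 1 library at a time gave 0 members. Marker sums of 7 of the 12 cell type lists did not overlap between dose 2 and control. The 6 elongating spermatid markers summed to 14344, 14300 and 16073 CPM at dose 2 and to 19651, 17325 and 24694 CPM in control, although 0 of the 6 passed. The 6 Leydig cell markers summed to 1024, 915 and 817 CPM at dose 2 and to 1088, 1129 and 1135 CPM in control (1 passed as lower), and the 3 adipocyte markers to 8.78, 9.10 and 10.2 CPM at dose 2 and to 19.1, 15.3 and 20.1 CPM in control (1 passed as lower). Spermatogonial sums (144, 145 and 143 CPM at dose 2, 132, 138 and 125 CPM in control) and Sertoli cell sums (139, 136 and 136 CPM at dose 2, 127, 134 and 110.1 CPM in control) lay the other way, with 0 markers passing. The oocyte and luteal lists, low in testis, were also below control. The part of these cell types in the members' values was not tested. Without F1 control library C and F1 dose 1 library A, a setting added after the data were seen, the log2 fold changes at dose 2 were 0.17 for Piwil1, 0.24 for Tdrd1 and 0.23 for Tdrd6, and these 3 genes passed (adjusted p = 0.0373, 0.0221 and 0.0185, edgeR).

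In F1 testis at dose 1, the members' log2 fold changes ran from -0.02 to 0.27 with a median of 0.03, and all 10 genes overlapped control. None passed, where 0.0317% of 18923 genes did, and no member had an unadjusted p under 0.05, where 8.55% of genes did. The lowest adjusted p was 0.606, for Ddx4, at 499, 565 and 571 CPM at dose 1 and 487, 492 and 510.5 CPM in control. Dose 1 library A was the lowest of the 27 testis libraries in Piwil2 (125 CPM), Mov10l1 (73.4 CPM), Tdrd1 (159.8 CPM), Tdrd6 (685 CPM) and Tdrd9 (138 CPM). It is one of the libraries with the highest elongating spermatid markers, and leaving it out with control library C gave 0 members again.

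**Figure D2:**
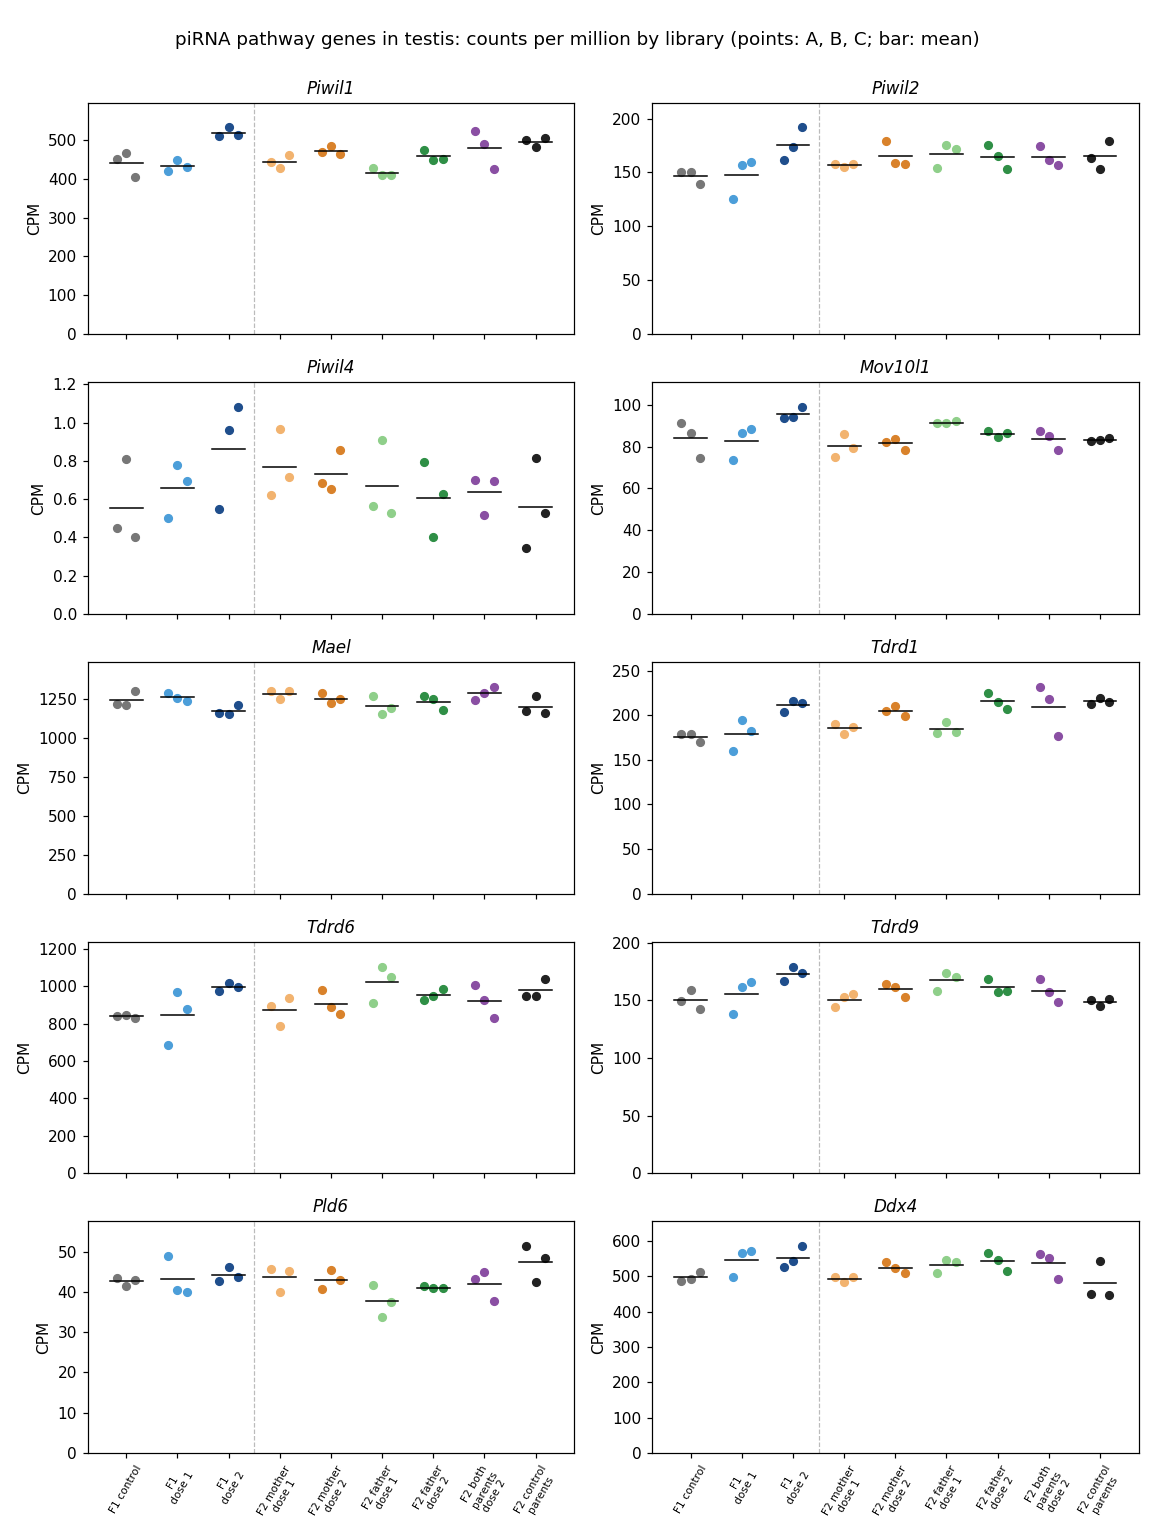
CPM of the 10 genes in each testis library (points, in the order A, B and C) with the group mean (bar); F1 groups stand left of the dashed line and F2 groups right of it, and every axis starts at 0. Piwil1 peaks at F1 dose 2 (509 to 532 CPM) and is lowest on average in F2 of a dose 1 father (409 to 427 CPM), and Piwil4 stays at or below 1.08 CPM.

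In the F2 testes, members passed in 1 of the 5 comparisons with control parents. With a dose 1 father, 2 of the 10 genes were lower, where 3.97% of 19241 genes passed and 1.75% passed as lower. Piwil1 had 427, 410.3 and 409 CPM with a dose 1 father, against 499, 483 and 505 CPM with control parents, a log2 fold change of -0.26 ± 0.07 (adjusted p = 0.0362, edgeR). Pld6, the precursor nuclease, had 41.6, 33.8 and 37.5 CPM with a dose 1 father, against 51.3, 42.5 and 48.4 CPM with control parents, a log2 fold change of -0.34 ± 0.09 (adjusted p = 0.0484, edgeR). In both genes the groups did not overlap, and the share of all genes without overlap was not computed here. The calls were near the threshold: neither gene passed when control parents library A or C, or father library B or C, was left out, nor in a fit of only the 6 libraries. Without father library A, Piwil1 did not pass (adjusted p = 0.0572, edgeR). The log2 fold change stayed between -0.28 and -0.24 for Piwil1 and between -0.33 and -0.27 for Pld6 in the settings that ended a call. Elongating spermatid markers summed to 15571, 13321 and 14372 CPM with a dose 1 father and to 15157, 13414 and 15127 CPM with control parents, so these sums overlapped. The sums of 5 of the 12 lists did not overlap. Spermatocyte markers summed to 627, 644 and 615 CPM with a dose 1 father and to 493, 595 and 494 CPM with control parents (2 of 7 passed as higher). Leydig cell markers summed to 962, 1089 and 1093 CPM with a dose 1 father and to 1353, 1420.4 and 1399 CPM with control parents (3 of 6 passed as lower). Macrophage markers summed to 27.9, 24.4 and 22.8 CPM with a dose 1 father and to 38.1, 38.1 and 39.5 CPM with control parents (2 of 5 passed as lower). The oviduct list, which in testis is mostly Foxj1, a gene of ciliated and flagellated cells, was above control parents (169.8, 176 and 184 CPM against 134, 126 and 133 CPM), and the luteal list, which testis also expresses, below. Over the 27 testis libraries Piwil1 ran against the spermatocyte markers (r = -0.538, rho = -0.485, adjusted permutation p-values 0.00671 and 0.0236; r = -0.476 without the 2 farthest libraries and -0.522 within groups), as did Pld6 by r (r = -0.488, adjusted permutation p = 0.0208) but not by rho (-0.334, adjusted permutation p = 0.114), with r = -0.174 without the 2 farthest libraries. The part of these cell types in the calls of Piwil1 and Pld6 was not tested.

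The other 8 members did not pass. Tdrd1 had 181, 192 and 181 CPM with a dose 1 father, against 213, 219 and 215 CPM with control parents, without overlap (-0.23 ± 0.08, adjusted p = 0.114, edgeR). Tdrd9 lay the other way, with 158, 174 and 169.9 CPM with a dose 1 father and 150.2, 145 and 151 CPM with control parents (0.17 ± 0.06, adjusted p = 0.156, edgeR). Mov10l1 had 91.1, 91.1 and 92.2 CPM with a dose 1 father, against 82.7, 82.9 and 84.2 CPM with control parents, groups that also did not overlap (0.13 ± 0.06, adjusted p = 0.278, edgeR). Piwil2, Mael and Tdrd6 had log2 fold changes of 0.01, 0.00 and 0.06, and Piwil4 and Ddx4 of 0.24 ± 0.34 and 0.14 ± 0.08, with overlap in all 5 genes.

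With a dose 1 mother, 0 members passed (0.816% of 19241 genes did), and Piwil1 (-0.17 ± 0.07) and Tdrd1 (-0.23 ± 0.08) had unadjusted p-values of 0.0176 and 0.00879 in edgeR's test. Of all genes, 17.9% had an unadjusted p under 0.05 in that test. Tdrd1 had 191, 179 and 187 CPM with a dose 1 mother, below all of 213, 219 and 215 CPM with control parents. Piwil1 and Tdrd6 also lay below control parents in every library, and the share of all genes without overlap was not computed here. Elongating spermatid markers summed to 16555, 16398 and 16785 CPM with a dose 1 mother, above each of 15157, 13414 and 15127 CPM with control parents, with 0 of 6 passing. In all, 10 of the 12 lists had sums that did not overlap. Spermatocyte markers (611, 619.8 and 610.4 CPM with a dose 1 mother, 493, 595 and 494 CPM with control parents) and the oviduct list (175, 192 and 174 CPM with a dose 1 mother, 134, 126 and 133 CPM with control parents) lay above, with 0 passing, and Leydig cell markers (1181, 1328 and 1224 CPM with a dose 1 mother, 1353, 1420.4 and 1399 CPM with control parents) below. The part of these cell types in the members' values was not tested. When the mother was at dose 2, 0 members passed (1.70% of genes did) and none had an unadjusted p under 0.05, where 18.5% of genes did. In testes from a dose 2 father, 0 members passed (5.33% of genes did). There Pld6 had 41.5, 40.8 and 40.9 CPM, against 51.3, 42.5 and 48.4 CPM with control parents (-0.21 ± 0.09, adjusted p = 0.168, edgeR). With both parents at dose 2, 0 members passed (4.59% of genes did), and every member overlapped. Marker sums did not overlap control parents in 7 lists with a dose 2 mother, 6 with a dose 2 father and 7 with both parents at dose 2, spermatocytes above and Leydig cells and macrophages below in all 3 crosses. Unadjusted p-values in edgeR's test were under 0.05 for 2 members with a dose 2 father and for 0 with both parents at dose 2. The shares of all genes under that p were 24.3 and 22.1%.

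Ddx4 in F2 testis turned on 1 control library. Control parents libraries A, B and C held 448, 544 and 447 CPM, and spermatocyte markers summed to 493, 595 and 494 CPM in the same libraries; the part of these markers in the Ddx4 values was not tested. Without library B, Ddx4 passed as higher with a dose 2 mother, a dose 1 father, a dose 2 father and both parents at dose 2, with log2 fold changes of 0.23, 0.26, 0.28 and 0.26. With all 3 libraries its log2 fold changes in these 4 comparisons were 0.13, 0.14, 0.17 and 0.15 and none passed.

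**Figure D3:**
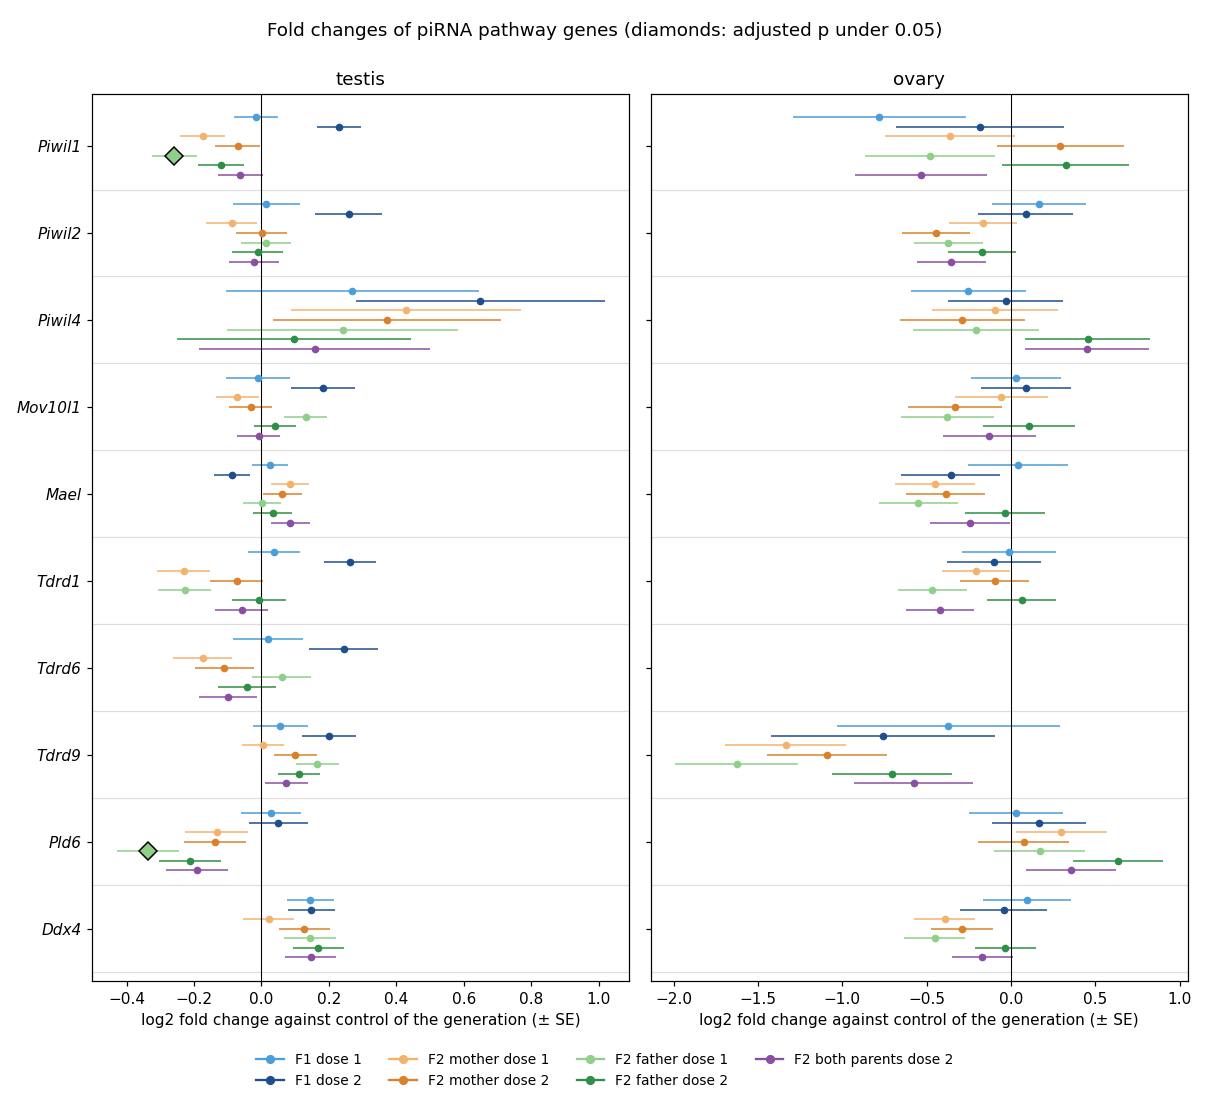
Log2 fold changes (points) ± SE (lines) of each gene against the control group of its generation, testis left and ovary right, with a colour per comparison; diamonds passed an adjusted p of 0.05 and the 2 panels have different scales. The only diamonds are Piwil1 and Pld6 in testis with a dose 1 father, and Tdrd9 in ovary lies furthest from 0, down to -1.63.

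Control testes of the generations differed in 1 member. Set against F1 control, Tdrd1 was higher in F2 of control parents, with 213, 219 and 215 CPM in F2 and 179, 179 and 169.9 CPM in F1 (log2 fold change 0.29 ± 0.08, adjusted p = 0.0142, edgeR). In this comparison 14.5% of 19467 genes passed and 6.14% passed as higher. Without F1 control library C, Tdrd1 did not pass (0.29, adjusted p = 0.0743, edgeR), and without F1 control library B, Piwil1 passed as well. Piwil1 had 499, 483 and 505 CPM in F2 of control parents and 449.9, 467 and 406 CPM in F1 control, without overlap (0.17 ± 0.06, adjusted p = 0.0711, edgeR). Tdrd6 also lay apart, with 945, 947 and 1040.4 CPM in F2 of control parents and 841, 848 and 827 CPM in F1 control (0.22 ± 0.10, adjusted p = 0.119, edgeR). The elongating spermatid sums were 15157, 13414 and 15127 CPM in F2 of control parents and 19651, 17325 and 24694 CPM in F1 control, again without overlap (1 marker passed as higher and 2 as lower). Spermatocyte sums were lower (493, 595 and 494 CPM in F2 of control parents, 617, 602 and 736 CPM in F1 control, 2 of 7 passing), and Leydig cell sums higher (1353, 1420.4 and 1399 CPM in F2 of control parents, 1088, 1129 and 1135 CPM in F1 control, 2 of 6 passing). Sums of 7 of the 12 lists did not overlap, and the part of these cell types in the members' differences was not tested. Generation cannot be told apart from handling, from the ethanol in F1 control water or from age, which is not given for F2.

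Across testis groups the changes were small. The ratio of the highest to the lowest of the 9 group means ran from 1.09 for Mael to 1.26 for Pld6 in the 9 genes other than Piwil4, for which it was 1.56. For Mael the SD of libraries within groups was 0.05 on the log2 scale, the least of the 10 genes, and for Piwil4 it was 0.40. F1 dose 2 had the highest group mean in Piwil1, Piwil2, Piwil4, Mov10l1, Tdrd9 and Ddx4, and the lowest in Mael.

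In the ovary, no member passed in any comparison with control. Across all genes tested, the shares that passed were 0% at F1 dose 1, 0% at F1 dose 2, 0% with a dose 1 mother, 0% with a dose 2 mother, 0% with a dose 1 father, 0.00573% with a dose 2 father and 0.688% with both parents at dose 2. It was 0% too for F2 of control parents against F1 control, where 1 member (Piwil2) had an unadjusted p under 0.05. In edgeR's test the members with an unadjusted p under 0.05 numbered 0 at F1 dose 1, 0 at F1 dose 2, 2 with a dose 1 mother, 2 with a dose 2 mother, 4 with a dose 1 father, 1 with a dose 2 father and 0 with both parents at dose 2. The shares of all genes under that p were 5.27, 12.0, 9.20, 5.83, 9.63, 15.8 and 24.5% in the same order. DESeq2 called Tdrd9 with a dose 1 mother and with a dose 1 father and no other member. Tdrd6 was below the count filter in the 7 comparisons with control and was not tested there; the other 9 genes were. At F1 dose 1 the 9 tested genes ran from -0.78 (Piwil1) to 0.17 (Piwil2) on the log2 scale, and at F1 dose 2 from -0.76 (Tdrd9) to 0.17 (Pld6); every tested gene overlapped control, and no unadjusted p was under 0.05. Oocyte markers at F1 dose 2 summed to 336, 228 and 293 CPM, below the 448, 353 and 447 CPM in control, with 0 of 10 passing. Without the 3 libraries with oviduct markers, a setting added after the data were seen, 0 members passed in either comparison, with the 1 dose 2 library that remained taken to vary like the other groups. In the 7 comparisons with control, SEs were 0.05 to 0.38 in testis, against 0.18 to 0.66 in ovary.

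Tdrd9, the Tudor helicase, had the highest ratio between ovary group means among the tested genes, 3.10. It stood at 2.89, 2.76 and 4.39 CPM with a dose 1 mother, at 2.197, 4.12 and 5.56 CPM with a dose 2 mother and at 1.65, 3.06 and 3.47 CPM with a dose 1 father. All 9 of these libraries lay below the 8.97, 9.40 and 7.00 CPM with control parents. For the dose 1 father the log2 fold change was -1.63 ± 0.36 (unadjusted p = 4.35e-04, adjusted p = 0.362, edgeR). It was -1.34 ± 0.36 with a dose 1 mother (adjusted p = 0.308, edgeR) and -1.09 ± 0.36 with a dose 2 mother (adjusted p = 0.731, edgeR). In DESeq2 the adjusted p was 0.0055 for the dose 1 father and 0.0353 for the dose 1 mother. Oocyte markers summed to 310.5, 429 and 329 CPM with a dose 1 mother and to 346, 381 and 352 CPM with a dose 2 mother, where control parents had 409.6, 434 and 364 CPM; both overlapped. Sums of 2 of the 12 lists lay apart with a dose 1 mother, both below control parents, and 0 did with a dose 2 mother. The spermatogonial list, in ovary mostly Uchl1 and Kit, had 151, 177 and 162 CPM against 225, 229 and 250 CPM with control parents. The spermatocyte list had 2.13, 1.45 and 1.87 CPM against 3.79, 2.86 and 2.34 CPM. The part of the oocyte markers and of these lists in the Tdrd9 values was not tested. With a dose 2 father (3.73, 4.39 and 7.57 CPM) and with both parents at dose 2 (5.27, 4.46 and 7.24 CPM) Tdrd9 overlapped the control parents, at -0.70 ± 0.36 and -0.58 ± 0.35. The 5 crosses share these 3 control libraries. In F1, Tdrd9 had 5.05, 3.31 and 7.05 CPM in control, 1.74, 7.83 and 2.36 CPM at dose 1 and 1.88, 1.55 and 5.61 CPM at dose 2. These F1 groups overlapped.

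Among ovaries from a dose 1 father, 4 of the 10 genes had separate groups, as 15.1% of the 17454 genes tested did, and all 4 (Piwil1, Tdrd1, Tdrd9 and Ddx4) were lower than with control parents. Ddx4 had 4.02, 3.55 and 5.16 CPM with a dose 1 father, against 5.95, 6.26 and 5.30 CPM with control parents (-0.45 ± 0.18, adjusted p = 0.453, edgeR). Tdrd1 had 7.69, 8.54 and 10.4 CPM with a dose 1 father, against 13.3, 12.4 and 11.1 CPM with control parents (-0.47 ± 0.20, adjusted p = 0.482, edgeR). The median of the 9 tested members was -0.45, against about 0 for all genes. The 10 oocyte markers summed to 283, 311 and 369 CPM with a dose 1 father and to 409.6, 434 and 364 CPM with control parents. These sums overlapped, 10 of 10 markers had a log2 fold change below 0, and 0 passed. Luteal cell markers did not overlap, at 24229, 21042 and 14144 CPM with a dose 1 father and 12152, 13913 and 11534 CPM with control parents, with 0 of 5 passing. Most of the luteal sum is Cyp11a1 and Hsd3b1. The spermatogonial and adipocyte lists also had separate sums, both below control parents. In ovary the spermatogonial list is mostly Uchl1 and Kit (medians 90.4 and 75.4 CPM), with Stra8 and Dmrt1 at a median of 0 CPM. The part of the oocyte, luteal and these other lists in the lower values was not tested. Pld6 went the other way in ovary with a dose 2 father, at 1.56, 1.61 and 1.61 CPM against 1.04, 1.46 and 0.574 CPM with control parents (0.63 ± 0.27, adjusted p = 0.276, edgeR). In that cross the oocyte markers summed to 508, 501 and 546 CPM, above all 3 control libraries, with 10 of 10 markers above 0 on the log2 scale and 0 passing; their part was not tested.

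**Figure D4:**
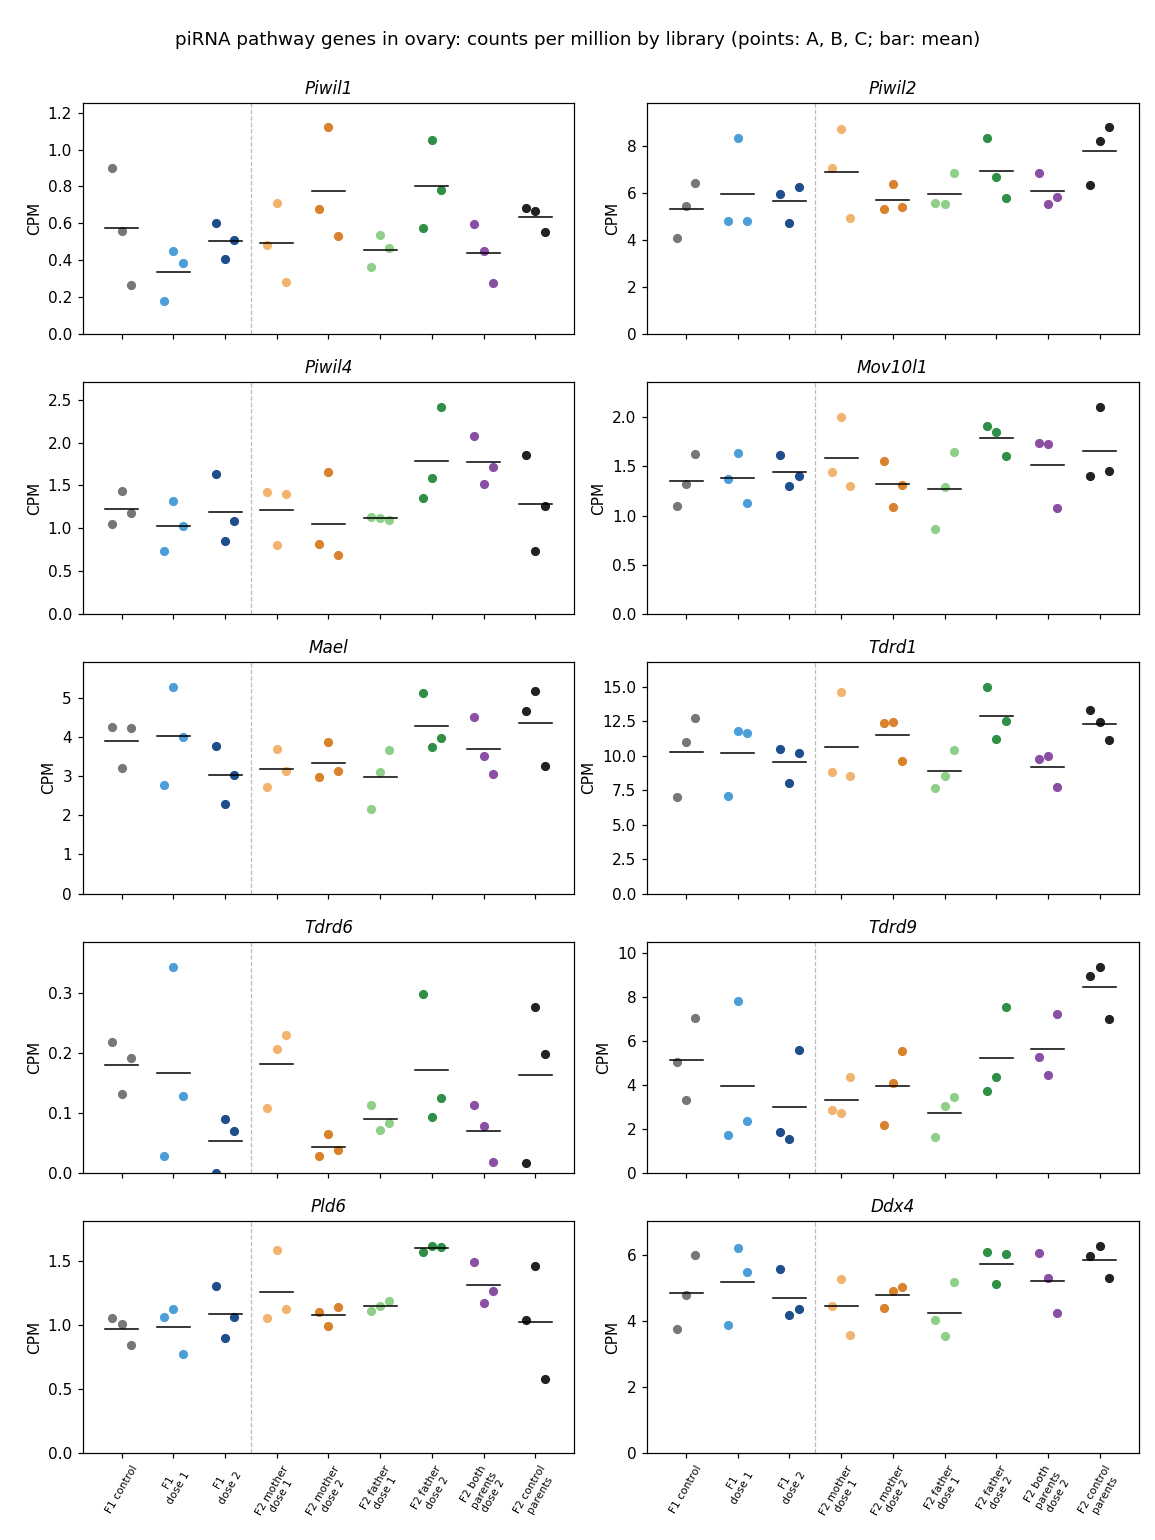
CPM of the 10 genes in each ovary library (points, in the order A, B and C) with the group mean (bar); F1 groups stand left of the dashed line and F2 groups right of it, and every axis starts at 0. Tdrd9 runs from 1.55 to 9.40 CPM with its highest libraries in F2 of control parents, and Tdrd6 stays at or below 0.345 CPM.

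How the members varied with the cells around them was described over the 27 libraries of each tissue, in 26 relations between log2 levels and log2 marker sums with 100000 permutations each. In ovary, Mael tracked the oocyte markers most closely, with Pearson r = 0.779 and Spearman rho = 0.798 (permutation p = 1e-05, the smallest these permutations can give, adjusted p = 1.30e-04 for each). Its r was 0.726 without the 2 libraries farthest from the median and 0.868 within groups. Tdrd9 (r = 0.641, rho = 0.622), Ddx4 (r = 0.632, rho = 0.631) and Tdrd1 (r = 0.618, rho = 0.594) were also related to these markers, with permutation p-values of r adjusted to 0.00151, 0.00165 and 0.00205 and of rho to 0.00354, 0.00354 and 0.00557. Without the 2 farthest libraries their r was 0.498, 0.586 and 0.500, and within groups 0.544, 0.670 and 0.631. Luteal cell markers, added after the data were seen as a family of 8 relations, ran the other way. Their r was -0.717 for Ddx4 (rho = -0.658) and -0.676 for Tdrd1 (rho = -0.681), larger in size than the r of these genes with the oocyte markers, with permutation p-values adjusted to 4.80e-04 and 5.20e-04 for r and to 0.00108 for each rho. Without the 2 farthest libraries r was -0.678 for Ddx4 and -0.593 for Tdrd1, and within groups -0.713 and -0.508. In ovary the luteal sum is mostly Cyp11a1 and Hsd3b1 (medians 7246 and 5547 CPM), which the Leydig cell list also holds. With the Leydig cell list r was -0.703 for Ddx4 and -0.670 for Tdrd1, so the relation is not particular to luteal cells. In testis, Tdrd1 was lower where elongating spermatid markers were higher, with r = -0.815 and rho = -0.795 (permutation p = 1e-05, adjusted p = 1.30e-04 for each), r = -0.741 without the 2 farthest libraries and -0.854 within groups. Tdrd6 (r = -0.711, rho = -0.651), Piwil2 (r = -0.705, rho = -0.606) and Tdrd9 (r = -0.631, rho = -0.551) had the same sign, with permutation p-values of r adjusted to 4.55e-04, 2.60e-04 and 0.00182 and of rho to 0.00277, 0.00472 and 0.0109. Their r without the 2 farthest libraries was -0.549, -0.435 and -0.432, and within groups -0.631, -0.570 and -0.810. With the adipocyte list the r of these genes was larger in size, at -0.851 for Tdrd6, -0.777 for Piwil2 and -0.736 for Tdrd9. For Tdrd1 it was smaller in size than with the elongating spermatid markers, at -0.698. In testis the adipocyte list is mostly Adipoq (median 8.90 CPM, against 1.97 CPM for Plin1 and 0.360 CPM for Cfd). Its highest sum, 25.0 CPM, was in F1 dose 1 library A, where Tdrd1, Tdrd6, Piwil2 and Tdrd9 were lowest. The relations to the adipocyte list were not tested, nor recomputed without the farthest libraries. Which cell type these genes follow was therefore not settled. With the elongating spermatid markers Mael had the opposite sign (r = 0.392, rho = 0.383), with adjusted permutation p-values of 0.0525 and 0.0715. With the spermatocyte markers Mael had r = 0.565 and rho = 0.509 (adjusted permutation p-values 0.00333 and 0.0189). That r was 0.423 without the 2 farthest libraries and 0.622 within groups. Ddx4 was related to the spermatocyte markers with r = 0.593 and rho = 0.443 (adjusted permutation p-values 0.00257 and 0.0394), but r was 0.240 without the 2 farthest libraries, control parents A and C, so the relation over all libraries rests on those 2; within groups, which keeps them, r was 0.612.

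**Figure D5:**
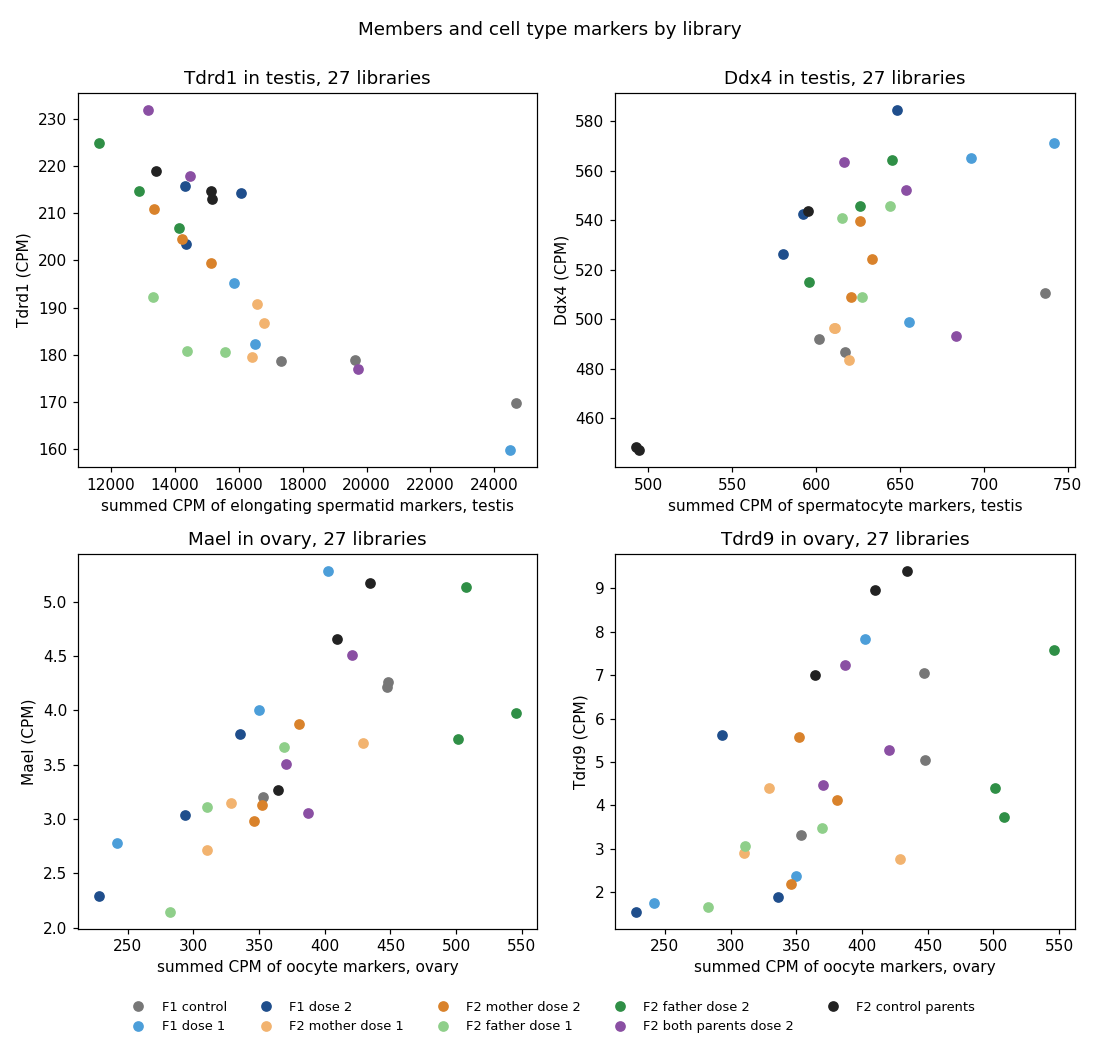
Levels of 4 members against summed marker levels, 1 point per library and 1 colour per group: Tdrd1 against elongating spermatid markers and Ddx4 against spermatocyte markers in testis (top), Mael and Tdrd9 against oocyte markers in ovary (bottom), all in CPM on axes that do not start at 0. Tdrd1 falls along the spermatid axis to 159.8 CPM in F1 dose 1 library A, and the 2 lowest Ddx4 points are control parents libraries A and C.

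Members of the same tissue did not all vary together. Over the 27 testis libraries, and as a description of libraries that share groups and depth, the highest of the 45 pairwise correlations of log2 CPM were those of Mov10l1 with Tdrd9 (r = 0.806), Piwil2 with Tdrd6 (r = 0.805) and Piwil1 with Tdrd1 (r = 0.793). Mael ran against Mov10l1 (r = -0.649), Tdrd6 (r = -0.562) and Tdrd9 (r = -0.519), so the most abundant member was low where these were high.

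Among 14265 genes of at least 1 CPM in testis, the gene most like each member over the 27 libraries was Eif4g1 for Piwil1 (r = 0.883), Sipa1l1 for Piwil2 (r = 0.903), Mllt6 for Mov10l1 (r = 0.843), Mfsd14a for Mael (r = 0.833) and Snx27 for Tdrd1 (r = 0.922). It was Camsap1 for Tdrd6 (r = 0.920), Dip2a for Tdrd9 (r = 0.917), Rce1 for Pld6 (r = 0.802) and Hnrnph1 for Ddx4 (r = 0.912). In ovary, among 13899 genes, the most like Mael was Zp2 (r = 0.814), which encodes an egg coat protein, and the most like Tdrd1 was Cpeb1 (r = 0.890), which encodes a regulator of stored oocyte mRNAs. Ddx4 was closest to Eda2r (r = 0.813), Piwil2 to Slc25a31 (r = 0.790), Pld6 to Zfp956 (r = 0.790), Mov10l1 to Etaa1 (r = 0.779), Tdrd9 to Pin1rt1 (r = 0.736) and Piwil4 to Ly6g6e (r = 0.701). Piwil4 in testis and Piwil1 and Tdrd6 in ovary were below 1 CPM and were not compared. These are the highest of many correlations and were not tested.

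Of 22 other piRNA pathway genes listed, 20 were found in the tables under these symbols, and Spocd1 and Dnmt3c were not analysed here. In testis at F1 dose 2, 1 of 20 passed, where 2.21% of all genes did: Tcfl5, a meiotic transcription factor, was lower at 338 CPM, against 400.1 CPM in control (-0.24 ± 0.06, adjusted p = 0.0492, edgeR). Mybl1, which encodes A-MYB, the meiotic activator of many piRNA genes, averaged 76.8 CPM at dose 2 and 74.8 CPM in control and did not pass. With a dose 1 father, 2 of 20 were higher and 0 lower, where 427 of 19241 genes were higher and 337 lower: Tex15, needed in the mouse for transposon silencing by Piwil4, averaged 127 CPM with a dose 1 father and 85.7 CPM with control parents (0.56 ± 0.13), with adjusted p = 0.0258 in edgeR's test. Asz1, a mitochondrial germ granule protein, averaged 24.95 CPM with a dose 1 father and 19.4 CPM with control parents (0.35 ± 0.09, adjusted p = 0.0317, edgeR). With a dose 2 father, 4 of 20 were higher and 0 lower, where 566 of 19241 genes were higher and 460 lower, namely Asz1 (0.51 ± 0.09), Tex15 (0.59 ± 0.13), Rnf17, a Tudor protein (0.37 ± 0.09), and Wdr77, a partner of the arginine methyltransferase Prmt5 (0.31 ± 0.08), with adjusted p-values of 0.00596 to 0.0347 in edgeR's test. Spermatocyte markers summed to 645, 626 and 596 CPM in this cross and to 493, 595 and 494 CPM with control parents, and their part in these genes' values was not tested. With both parents at dose 2, where 4.59% of genes passed, Tdrd12 was higher (0.23 ± 0.06, adjusted p = 0.0487, edgeR), and between the control groups, where 14.5% passed, Tdrd5 was higher in F2 than in F1 (0.22 ± 0.07, adjusted p = 0.0383, edgeR). None of the 20 passed in testis at F1 dose 1 or with a dose 1 or dose 2 mother. There 2, 3 and 7 of the 20 had an unadjusted p under 0.05 in edgeR's test, against 8.55, 17.9 and 18.5% of all genes. In the 7 ovary comparisons with control 19 were tested and 0 passed, and Btbd18 was below the count filter. From 0 to 6 were under that p, against 5.27 to 24.5% of all genes. Between F1 control testis and ovary, 18 were higher in testis and 2 lower, where 8212 and 7989 of 19432 genes were. The smallest p-values were those of Tcfl5 (10.82 ± 0.24), Rnf17 (7.17 ± 0.18), Tdrd12 (5.97 ± 0.17) and Stk31 (6.33 ± 0.19). The 2 lower genes are Prmt5 (-0.90 ± 0.14) and Wdr77 (-0.53 ± 0.13), which many cell types express.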

How the data were processed

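The authors deposited raw read counts, whole numbers for 26264 entries, with a table for each tissue. Per the labels' protocols, TRIZOL RNA went into a stranded mRNA ligation kit and was read at 100 nt. Per the submitters' processing notes, the genome build was mm39 and the tools included TopHat2 2.1.1 with Bowtie2 2.4.5, and featureCounts 2.0.3. Whether counting used strand, and with which annotation, is not given in the sources used here; antisense or overlapping transcripts could add to a gene's count. Entries with a symbol and no gene ID (133) stayed in the library totals, of which they held 0.319 to 0.377% in testis and 0.0591 to 0.0861% in ovary.

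Here edgeR 4.0.16 (R 4.3.3) was run on all genes with TMM scaling, a minimum count of 10, robust quasi-likelihood fits, Benjamini-Hochberg adjustment and a threshold of 0.05. Of the 17 comparisons, those within F1 were fitted on the 9 F1 libraries of the tissue, those within F2 on its 18 F2 libraries, those between generations on all 27, and that between tissues on 6. Log2 CPM for correlations with other genes used a prior count of 2, and the 26 relations to marker sums (and 8 to luteal markers, added after the data were seen) used log2 CPM with none. Libraries of a group were compared pair by pair over genes, where every pair differed by more than sampling noise (lowest chi-square per gene 3.24). Alternatives were DESeq2 1.42.0, RLE size factors, no low-count filter, other libraries in the fit, the replicate letter as a block, and each library left out. Letters were taken to pair samples where deviations from group means correlated above 0.1 for all 3 letters, which held only in ovary F1 dose 1 (0.189, 0.202 and 0.351); the labels do not say what letters share. Cross codes in the tables were read with the male first, as in the titles. Lengths come from GENCODE vM21 on GRCm38, used for names, chromosomes and lengths. The steps were tested on simulated counts.

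The 10 members, the other lists and the marker lists were chosen with earlier results of these data known. Every member is named; of the other pathway genes, those past the threshold are named, up to 4 per comparison, and Mybl1, Prmt5 and the libraries singled out were chosen after their values were seen, as were the promoter motifs. For likeness, the gene with the highest r of at least 1 CPM and no predicted name was taken.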

Additional observations from a re-analysis of the deposited data

Results flagged for a closer look

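A difference is listed where every library of one comparison lay above its control and every library of another lay below its control. The differences between the comparisons themselves were not tested. Separate groups were common among all genes tested, at 35.5% in testis at F1 dose 2 and 15.1% in ovary with a dose 1 father. The share of all genes with such opposite sides was not computed. Tdrd6 at F1 dose 2 lay above control in testis (log2 fold change 0.24) and below control in ovary, where the means were 0.0533 CPM at dose 2 and 0.181 CPM in control, on at most 10 counts per library. Tdrd9 with a dose 2 mother lay above control parents in testis (0.10) and below them in ovary (-1.09). With a dose 1 father Tdrd9 did the same (0.17 in testis and -1.63 in ovary). Pld6 with a dose 2 father lay below control parents in testis (-0.21) and above them in ovary (0.63). In testis at dose 2, Piwil1 lay above control in F1 (0.23) and below control parents in F2 of a dose 2 father (-0.12), and Tdrd1 lay above control in F1 (0.26) and below control parents in F2 of a dose 2 mother (-0.073).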

How the results depend on the processing

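Of 1963 recomputed log2 fold changes of the members, 1930 kept their side of the threshold and, where called, their direction, 14 lost a call, 19 gained one and none reversed a call; 116 uncalled values changed sign. At F1 dose 2 in testis, where 0 members passed, 2 passed in DESeq2, 4 with only the 6 libraries compared, 2 with all 27 libraries and 3 without dose 1 library A and control library C (chosen after seeing the data). With a dose 1 father in testis, where 2 passed, 1 passed with RLE size factors, 1 without the low-count filter and 0 with only the 6 libraries; leaving out 1 library gave 0 to 3. Leaving out 1 library gave 0 to 1 members with a dose 2 mother, a dose 2 father and both parents at dose 2 in testis, and 0 to 2 for F2 of control parents against F1 control, where DESeq2 gave 2. In ovary DESeq2 gave 1 member with a dose 1 mother and 1 with a dose 1 father. The cause of these changes was not tested. With the replicate block as a term, 2 members passed with a dose 1 father, 1 between the control testes, 9 between tissues and 0 elsewhere, as without it, and it changed no call; in ovary F1 dose 1, where the letters were taken to pair samples, it gave 0. Depth limits Tdrd6 and Piwil1 in ovary and Piwil4 in testis, which rest on 0 to 16, 11 to 69 and 13 to 45 counts per library.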
